A study of Mus musculus with 17 samples.

Results

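The 10 genes described here encode core subunits of 2 Polycomb complexes, and their rows were taken by symbol from the deposited table of 23282 genes. *Pcgf6*, *L3mbtl2*, *Mga*, *Max*, *E2f6*, *Rnf2* and *Ring1* belong to the PRC1.6 complex, and *Ezh2*, *Eed* and *Suz12* form PRC2. All 10 were listed and passed the filter on low values in every comparison. WT and *Nat10*-SKO mice on the C57BL/6J background gave 3 kinds of testis cells sorted by FACS: SPG, which are spermatogonia, PreL, which are spermatocytes before leptotene, and LZ, which are spermatocytes in leptotene or zygotene. *Nat10* encodes the enzyme that acetylates cytidine in RNA. In *Nat10*-SKO (genotype label Stra8-cre_Nat10_KO; *Nat10* fl/-;*Stra8*-GFPCre), the mice carry 1 floxed and 1 deleted *Nat10* allele, and Cre knocked in at *Stra8* excises exons 4 and 5 in germ cells from the differentiating spermatogonia onwards. The WT groups are labelled Wildtype, with no Cre or floxed allele named. There were 3 WT and 3 SKO libraries of SPG, 3 and 3 of PreL, and 2 and 3 of LZ. The study's supplement speaks of the libraries of a group as biological replicates, but age, and whether each library came from its own animals, were not given in the sources used here, so the p-values measure the spread between these libraries.

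Polycomb complexes keep genes silent through chromatin. PRC1 places ubiquitin on histone H2A through its RING1A (*Ring1*) or RNF2 subunit, and each variant of PRC1 is defined by 1 of the PCGF proteins. PRC1.6 is the variant built on PCGF6. It reaches DNA through E2F6 and through the MGA-MAX pair, and it is known for holding genes of the germline and of meiosis silent in somatic and pluripotent cells. PRC2 methylates histone H3 at lysine 27, and its best known targets include the *Hox* genes.

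The letters that bring PRC1.6 to DNA can be read in the promoters of its germline targets, so these sequences are shown first. Promoters were RefSeq windows on GRCm38.p6, from 250 bases before to 50 after a gene's start, and were found for 18 of the 19 measured genes of a list of germline targets written from general knowledge. Both strands were searched for an E2F site, GCGGGAA or TTCCCGC, and for the E-box of MGA-MAX, CACGTG, which share no overlap. The E2F letters were in 8 of 18 target genes (44.4%) and in 5.29% of all 27025 RefSeq genes. The E-box was in 10 of 18 (55.6%) and in 8.09% of all. Shares above those of all genes were not particular to these targets. Among other lists described below, the E-box was in 5 of 7 removers of Polycomb marks (71.4%) and 7 of 15 other PRC1 genes (46.7%). The E2F letters were in 2 of 5 other E2F factors (40%), but in 0 of 5 other PRC1.6 subunits and 0 of 22 *Hox* genes. These genes were listed because such factors are known to hold them, so the shares are a description. In 6 of the 8, the E2F letters lay far enough inside the 250 bases before the start for a stretch of 30 bases to be shown, 5′ to 3′ on the gene's strand, with the E2F letters in capitals.
Ddx4 (chr13:112652429-112652458, minus strand): tccgtccatgggGCGGGAAgtcgcgcgccg
Hormad1 (chr3:95559570-95559599, plus strand): gcgcagcttttgGCGGGAAtagtggtctgg
Smc1b (chr15:85131988-85132017, minus strand): gaaaagaatttcTTCCCGCgcttttttttt
Sycp3 (chr10:88459428-88459457, plus strand): aaggaaggaacaGCGGGAAagtgctgcttc
Tuba3a (chr6:125286184-125286213, minus strand): cactccagagccTTCCCGCcaaagccacat
Tuba3b (chr6:145615844-145615873, plus strand): cactccagagccTTCCCGCcaaatttacat
The stretches of *Tuba3a* and *Tuba3b*, which encode near-identical alpha-tubulins of the testis, were identical at 27 of 30 bases. *Hormad1*, which encodes a meiotic axis protein, had the E2F letters and 2 E-boxes within 100 bases, so its 250 bases before the start are given in full, with both kinds of site in capitals.
Hormad1 (chr3:95559427-95559676, plus strand): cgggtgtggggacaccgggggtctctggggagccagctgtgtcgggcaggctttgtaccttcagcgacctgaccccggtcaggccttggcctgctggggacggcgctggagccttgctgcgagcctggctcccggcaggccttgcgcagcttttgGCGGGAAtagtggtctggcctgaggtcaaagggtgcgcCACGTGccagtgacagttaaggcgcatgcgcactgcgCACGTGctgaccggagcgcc
Of the 10 members themselves, *Suz12* alone had the E2F letters, 218 bases before its start, and *Max* alone had an E-box, across its start. The 250 bases before the start of *Suz12* are shown with the E2F letters in capitals, because it is the only member with this site of E2F6 itself.
Suz12 (chr11:79992856-79993105, plus strand): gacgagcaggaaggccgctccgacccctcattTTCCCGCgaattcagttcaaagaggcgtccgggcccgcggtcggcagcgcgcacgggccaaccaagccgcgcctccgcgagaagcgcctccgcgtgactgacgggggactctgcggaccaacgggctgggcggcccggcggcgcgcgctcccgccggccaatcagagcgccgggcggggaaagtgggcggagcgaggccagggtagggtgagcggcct
A match of letters is not a measured binding site.

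Per length, *Eed* and *Suz12* led in every group and *Ring1* was lowest in 5 of 6. In WT SPG, the mean RPKM (reads per kilobase of exon, scaled to the library's total reads) was 67.9 ± 4.9 for *Eed* and 61.7 ± 2.8 for *Suz12* (SD, n = 3), whose libraries overlapped. EED reads methylated histone H3 and SUZ12 holds the complex together. *Rnf2* followed at 36.0 ± 7.4 and *Ezh2*, the methyltransferase, at 23.4 ± 2.8, each apart from the gene above it. *L3mbtl2* (8.96 ± 3.0), *Mga* (7.63 ± 0.68) and *E2f6* (7.04 ± 1.5) came next, with neighbouring ranges that overlapped. *Pcgf6* (3.06 ± 1.2), *Max* (2.88 ± 0.096) and *Ring1* (2.64 ± 0.85) were at the foot of the order, apart from *E2f6* and overlapping with each other. The member whose place moved most was *Pcgf6*, which stood 4th in WT LZ at 22.6 ± 3.5 RPKM (n = 2), and 6th to 10th of 10 in the other groups. In SKO SPG it was *Pcgf6*, at 3.01 ± 0.57, and not *Ring1* that was lowest, with overlapping ranges. Exons of *L3mbtl2*, *Rnf2*, *Ezh2*, *Eed* and *Suz12* overlap a gene on the opposite strand by 158 to 1023 bases, and whether counting used the strand is not stated, so a part of these values may belong to those neighbours.

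**Figure D1:**
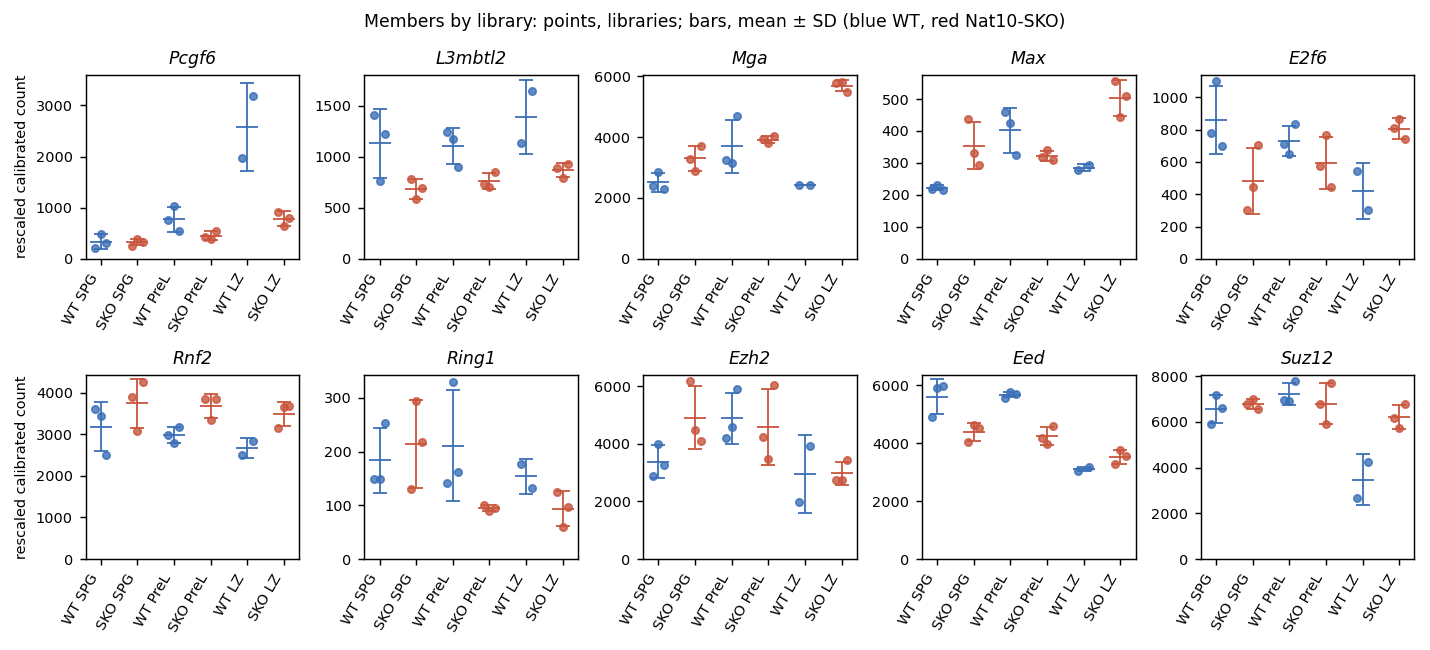
Rescaled ERCC-calibrated counts (linear y axes from 0) of the 10 members in 17 libraries, grouped on the x axis by genotype and stage. Points are libraries and bars are the mean ± SD (n = 3, or 2 for WT LZ); *Pcgf6* was highest in both WT LZ libraries and *Mga* in the 3 SKO LZ libraries.

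Values between libraries were compared on the deposited counts after division by a size factor, the median over genes of a library's ratio to the geometric mean of all libraries, so that they refer to the typical gene and not to RNA per cell. A gene was called where the Benjamini-Hochberg adjusted p of limma over all genes tested was under 0.05 and the absolute log2 fold change was above 1, the thresholds of the study. The libraries held from 9885136 to 13820953 recovered reads, except the 3 SKO LZ libraries with 5812380 to 7609420. *Nat10* itself fell in SKO by 0.87 in SPG (adjusted p = 0.0326, below the fold threshold), by 1.29 in PreL and by 1.47 in LZ on the log2 scale. Markers of meiotic prophase were present in every group, at summed levels of 3116 to 9369 RPM (reads scaled to the same library total) over 8 genes. These sums differed between the genotypes, as given below for each stage.

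The first question was how the members moved along WT differentiation. From SPG to PreL, 0 of 10 members were called by limma, against 3.75% of all 12657 genes, and at an adjusted p under 0.05 alone also 0 (7.28% of all genes). At an unadjusted p under 0.05 there were 4 (26.3% of all genes), and edgeR called 0 and DESeq2 1. *Pcgf6* came closest. Its values were 206, 493 and 304 in WT SPG and 761, 1026 and 540 in WT PreL, so the stages did not overlap, as for 4 of 10 members and 30.4% of all genes, with a log2 fold change of 1.18 ± 0.33 (SE) and an adjusted p of 0.0526. It was called by DESeq2 (adjusted p = 0.0166), without WT SPG replicate 2 (0.0351) and without WT PreL replicate 4 (0.0460). It was not called without WT SPG replicate 1 (0.138) or 3 (0.149), or without WT PreL replicate 1 (0.101) or 2 (0.175).

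From PreL to LZ in WT, 3 of 10 members were called, where 26.6% of all genes were. By direction 1 rose and 2 fell, against 18.8% and 7.8% of all genes. The stages did not overlap for 8 of 10 (62.9% of all genes). *Pcgf6* rose, with 1964 and 3189 in WT LZ, both above all PreL libraries (log2 fold change 1.59 ± 0.32, 3.00-fold, adjusted p = 0.00641). Without WT LZ replicate 3 the change was 1.25 with an adjusted p of 0.0704. The PRC2 core went the other way. *Suz12* fell from 6940, 6932 and 7783 in WT PreL to 2691 and 4262 in WT LZ, by 1.23 ± 0.22 on the log2 scale (adjusted p = 0.00452), and by 0.92 without WT LZ replicate 2, under the fold threshold. *Eed* fell from 5565, 5746 and 5685 to 3054 and 3163, by 1.01 ± 0.17 (adjusted p = 0.00379), just past the fold threshold. In RPM, where the median gene stood at 0.28, *Eed* fell by 0.85 (adjusted p = 0.00591) and was no longer called, and *E2f6* and *Mga* no longer had an adjusted p under 0.05. An adjusted p under 0.05 alone was reached by 6 of 10 members (34.7% of all genes). Below the fold threshold, *Ezh2* fell by 0.93 (adjusted p = 0.0349), *E2f6* by 0.97 (0.0476) and *Mga* by 0.72 (0.0379), and each of the 3 lost an adjusted p under 0.05 in 6 to 8 of 15 alternatives, several of them single libraries left out. *Max*, *Ring1*, *Rnf2* and *L3mbtl2* did not pass either threshold, at log2 fold changes from -0.60 to 0.17.

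These stage effects are relative to the typical gene. On the ERCC scale without rescaling, which keeps RNA per cell as the spike-in gives it, the median gene rose by 1.86 from PreL to LZ in WT on the log2 scale, and the 9 members other than *Pcgf6* also had positive log2 fold changes, from 0.60 for *Suz12* to 1.99 for *L3mbtl2*. Relative to that median, *Suz12* stood at -1.26, *Eed* at -1.03 and *Pcgf6* at 1.55. In bulk samples, fewer cells of a type and less RNA per cell cannot be told apart. Summed late spermatocyte markers (6 genes) also moved with these stages, from 231 to 878 RPM in WT PreL to 2689 and 4902 in WT LZ. Sertoli cell markers moved as well, from 57.6 to 65.6 RPM in WT PreL to 233 and 1165 in WT LZ, with 6 of 6 tested called higher. The part of both in the result was not tested.

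In SKO, 0 of 10 members were called from SPG to PreL by limma, against 2.59% of all genes, and 0 at an adjusted p under 0.05 alone (5.62% of all genes). There was 1 at an unadjusted p under 0.05 (23.3% of all genes), and edgeR and DESeq2 called 0. The 2 stages did not overlap for 3 of 10 members (28.1% of all genes). From PreL to LZ in SKO, limma, edgeR and DESeq2 called 0 of 10, against 17.5% of all genes for limma. An unadjusted p under 0.05 was reached by 6 (47.3% of all genes) and an adjusted p by 4 (36.9% of all genes), and the stages did not overlap for 4 (52.9%). *Mga* stood 0.50 ± 0.11 higher (adjusted p = 0.00665), *Pcgf6* 0.75 ± 0.21 higher (0.0206) and *Max* 0.59 ± 0.17 higher (0.0250), while *Ezh2* stood 0.62 ± 0.22 lower (0.0495). Scaled to RPM, *Mga*, *Pcgf6* and *Max* no longer passed, at 0.09, 0.34 and 0.18, and the median of all genes moved from -0.01 to -0.41, while *Ezh2* was called lower (-1.04). *Ezh2* lost an adjusted p under 0.05 in 8 of 17 alternatives and turned to 0.23 on the ERCC scale, *Pcgf6* lost it in 6 and *Max* in 5, in each case with several of the single libraries left out. *Suz12* (-0.16 ± 0.15) and *Eed* (-0.30 ± 0.12), which fell over this step in WT, did not pass in SKO.

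Whether the PreL to LZ step itself differed between genotypes was tested by an interaction term over all 17 libraries. It differed for 5 of 10 members at an adjusted p under 0.05, against 38.2% of all 13530 genes. With rescaling, all 5 differed towards higher in SKO, as did 15.1% of all genes, while 23.1% differed towards lower. The members that passed, and their direction, depended on the scale, as given after the values. They were *Mga* (1.12 ± 0.22, adjusted p = 0.000553), *Suz12* (0.96 ± 0.22, 0.00223), *Eed* (0.60 ± 0.17, 0.00987), *Max* (1.09 ± 0.34, 0.0175) and *E2f6* (1.29 ± 0.43, 0.0230). *Pcgf6* had the opposite sign, at -0.95 ± 0.44 (adjusted p = 0.10), and passed in RPM (-1.41, adjusted p = 0.00899). Without WT LZ replicate 2 it was at -1.30 and without WT LZ replicate 3 at -0.61, each with a single WT LZ library left. The direction of *Eed* turned on the ERCC scale (-0.27), where none of the 5 passed and the 3 members that did were all lower, *Pcgf6* at -1.81 (adjusted p = 0.00229), *L3mbtl2* at -0.99 (0.0203) and *Rnf2* at -0.78 (0.0298). Of the 5, *Eed*, *Max* and *E2f6* did not pass in RPM. The median gene had an interaction of -0.31 with rescaling, -1.12 on the ERCC scale and -0.74 in RPM. *E2f6* also lost the call without WT PreL replicate 4 (adjusted p = 0.0530), SKO PreL replicate 3 (0.0557) or WT LZ replicate 3 (0.175). For the SPG to PreL step, 0 of 10 members had an adjusted p under 0.05 with limma, edgeR or DESeq2 (0.362% of all genes with limma), and 1 had an unadjusted p under 0.05 (15.2% of all genes).

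The second question was how *Nat10*-SKO differed from WT within each stage. In SPG, 0 of 10 members were called by limma (6.02% of all 12846 genes), and 0 had an adjusted p under 0.05 alone (11.1% of all genes). At an unadjusted p under 0.05 there were 5 (26% of all genes), and edgeR and DESeq2 called 0. With size factors of the 2 SPG groups alone, the genotypes did not overlap for 5 of 10 members (29.6% of all genes), *E2f6* by a margin that the values below, scaled over all libraries, do not keep. *E2f6*, a repressive E2F, had the lowest log2 fold change, -0.88 ± 0.30 (adjusted p = 0.0731). Its values were 302, 442 and 704 in SKO SPG and 780, 1100 and 700 in WT SPG. *E2f6* was called without SKO SPG replicate 4, at -1.19 and an adjusted p of 0.0320. Leaving out any other single library gave no call, with adjusted p from 0.118 to 0.222, and a change of -0.59 without SKO SPG replicate 1. *Ezh2* was at 6160, 4465 and 4094 in SKO SPG and at 2873, 3996 and 3248 in WT SPG, which did not overlap (log2 fold change 0.51 ± 0.17, adjusted p = 0.0646). *L3mbtl2* was at 779, 587 and 695 in SKO SPG and at 1412, 762 and 1221 in WT SPG (-0.69, limma adjusted p = 0.0843). Its adjusted p fell under 0.05 in 4 of 17 alternatives.

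In PreL, 0 of 10 members were called by limma, edgeR or DESeq2, against 11.1% of all 13132 genes for limma, and 5 had an unadjusted p under 0.05 (33.7% of all genes). The genotypes did not overlap for 4 of 10 (37.4% of all genes). *Eed* alone had an adjusted p under 0.05 (17.9% of all genes did), with 4167, 3965 and 4593 in SKO and 5565, 5746 and 5685 in WT (-0.41 ± 0.11, adjusted p = 0.0346). On the ERCC scale, where the median gene stood at 0.73, its sign turned (0.31, adjusted p = 0.129). With rescaling, the adjusted p of *Eed* rose above 0.05 in 5 of 6 runs with 1 library left out, up to 0.162. *Pcgf6* was at 431, 389 and 544 in SKO PreL and at 761, 1026 and 540 in WT PreL, with 1 overlapping pair of libraries (-0.71 ± 0.25, adjusted p = 0.0785). Its adjusted p fell under 0.05 in 3 of 17 alternatives. These were DESeq2 (0.0426), a replicate block (limma, 0.0121) and leaving out WT PreL replicate 4 (limma, 0.0309). Over the 17 its change ranged from -1.08 to -0.004. *L3mbtl2* was at 731, 709 and 853 in SKO PreL and at 1246, 1171 and 903 in WT PreL, which did not overlap (-0.51, limma adjusted p = 0.0691). Over 17 alternatives its change ranged from -0.73 to 0.20, and its adjusted p fell under 0.05 with a lower value in SKO in 3. *Ring1*, at 89 to 100 in SKO and 141 to 329 in WT, rests on 47 to 154 reads per library and did not pass (-0.97 ± 0.36, adjusted p = 0.0951).

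Markers of other cells differed between the genotypes in both stages. In SPG, 7 spermatid markers summed to 103 to 294 RPM in WT and to 3.64 to 8.14 in SKO, with 6 of 7 called lower and *Acrv1* at 0 in SKO. Somatic markers were higher in SKO SPG, with 7 Leydig cell markers at 5.61 to 15.5 RPM in WT and 62.45 to 224.7 in SKO, 6 peritubular myoid markers at 1.21 to 43.8 and 270.5 to 483.7, and 6 macrophage markers at 5.005 to 12.5 and 65.8 to 127. *Lhcgr* and *Emr1* were at 0 in WT SPG. In PreL, spermatid markers summed to 537 to 914 RPM in WT and 7.99 to 13.0 in SKO, with 5 of 7 called lower and *Tssk1* at 0 in SKO. Leydig cell markers summed to 6.255 to 17.7 in WT PreL and 40.4 to 459 in SKO PreL. Sertoli cell markers were at 57.6 to 65.6 and 57.55 to 841.4, with 4 of 6 tested called higher. Peritubular myoid markers were at 7.09 to 32.6 and 28.0 to 133, and macrophage markers at 8.31 to 17.4 and 18.9 to 71.3. The 8 meiotic prophase markers were higher in SKO in both stages. They summed to 3116 to 3314 RPM in WT SPG and 4527 to 4940 in SKO SPG, with 0 of 8 called. In PreL they summed to 5032 to 5840 in WT and 6672 to 9369 in SKO, with 1 of 8 called higher. The part of these differences in the SPG and PreL values of members and lists was not tested.

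In LZ, 2 of 10 members were called, where 39.1% of all 13724 genes were, 25.8% lower and 13.4% higher. *Pcgf6* was lower in SKO. The 3 SKO LZ libraries held 920, 644 and 798 and the 2 WT LZ libraries 1964 and 3189, so that the genotypes did not overlap, and the level was 3.23-fold lower in SKO (log2 fold change -1.69 ± 0.27, adjusted p = 0.00158). *Mga*, the scaffold that pairs with MAX, was higher in SKO. Its values were 5789, 5810 and 5487 in SKO LZ and 2424 and 2437 in WT LZ, a 2.32-fold difference (log2 fold change 1.21 ± 0.14, adjusted p = 0.000358). Both kept an adjusted p under 0.05 in all 16 alternatives, from -2.09 to -1.35 for *Pcgf6* and from 0.83 to 1.27 for *Mga*. In RPM *Mga* was at 0.83, under the fold threshold.

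Of all genes 50.9% had an adjusted p under 0.05 in LZ, and 6 of 10 members did, with 4 of them under the fold threshold. *Suz12* was higher in SKO, with 6149, 5746 and 6775 against 2691 and 4262 (0.86 ± 0.22, adjusted p = 0.0151). *E2f6* was also higher, with 811, 867 and 740 against 544 and 300 (0.97 ± 0.28, adjusted p = 0.0221). *Max*, the small partner of MGA and of the MYC proteins, stood at 556, 443 and 510 against 277 and 294 (0.78 ± 0.25, adjusted p = 0.0313). *L3mbtl2*, which compacts chromatin within PRC1.6, was lower, with 893, 797 and 932 against 1135 and 1643 (-0.66 ± 0.22, adjusted p = 0.0393). It was also lower in SPG (-0.69) and PreL (-0.51), where it did not pass. Its interaction over the PreL to LZ step was -0.12 (limma adjusted p = 0.797). In LZ the groups did not overlap for any of these 4 members, as for 70.1% of all genes. Their p-values depended on scale and on single libraries. In RPM, where the median gene stood at -0.50, *Max* (0.41, adjusted p = 0.251) and *E2f6* (0.59, 0.196) did not pass, *Suz12* did (0.48, 0.0415), and *L3mbtl2* was called lower (-1.04, 0.00171). On the ERCC scale *Max* had an adjusted p of 0.0510. That of *Suz12* rose to 0.0502 without WT LZ replicate 2 and to 0.0545 without SKO LZ replicate 3. That of *Max* rose above 0.05 on leaving out any of the 5 libraries, to between 0.0608 and 0.113. *E2f6* and *L3mbtl2* each lost it without WT LZ replicate 3 or any of the 3 SKO libraries.

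The remaining 4 members did not pass in LZ. *Ezh2* was at 0.07 ± 0.29, *Eed* at 0.16 ± 0.15, *Rnf2* at 0.37 ± 0.16 and *Ring1* at -0.75 ± 0.44 on the log2 scale. The signs of *Ezh2*, *Eed* and *Rnf2* turned in RPM, and that of *Ezh2* also on the ERCC scale, with none of these values past an adjusted p of 0.05. Relative to the median gene the 3 scales gave 0.19 to 0.20 for *Ezh2*, 0.28 to 0.29 for *Eed*, 0.49 to 0.50 for *Rnf2*, 1.33 to 1.34 for *Mga* and -1.57 to -1.56 for *Pcgf6*. The 3 scales differ by 1 factor per library, so values relative to the median are near equal by construction. PRC1.6 members included values in both directions within LZ, with *Pcgf6* and *L3mbtl2* lower and *Mga*, *Max* and *E2f6* higher at an adjusted p under 0.05 with rescaling, of which *Max* and *E2f6* did not pass in RPM.

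**Figure D2:**
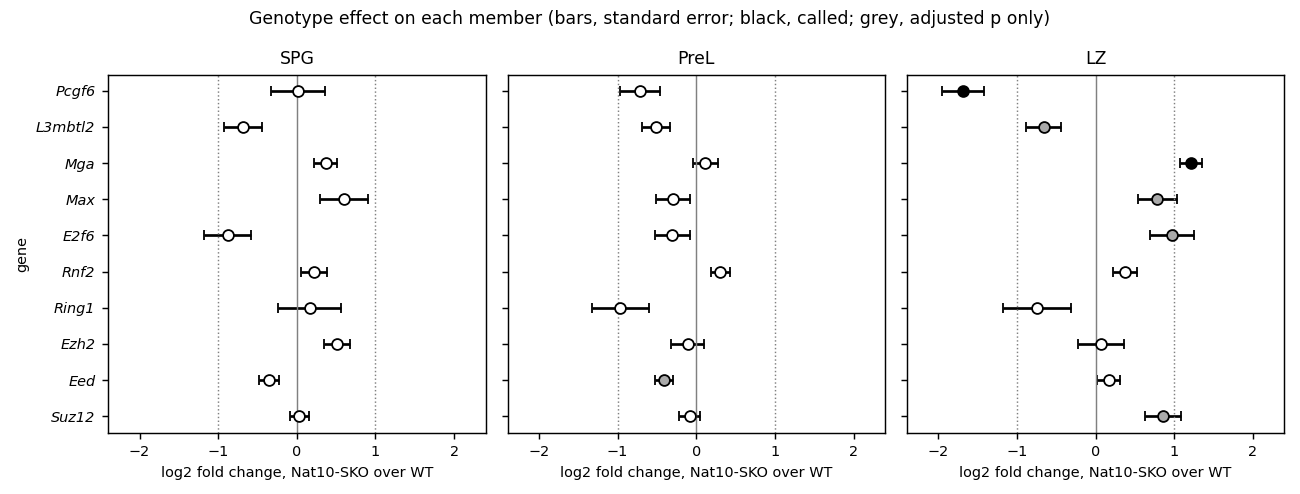
Log2 fold change of *Nat10*-SKO over WT (x axis) for each member (y axis) in SPG, PreL and LZ, with standard errors from limma. Filled black points were called, grey points had an adjusted p under 0.05 with a smaller change, and dotted lines mark the fold threshold; in LZ *Pcgf6* lies at -1.69 and *Mga* at 1.21.

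Sorted LZ cells of the 2 genotypes also differed in markers of other stages. The 6 late spermatocyte markers summed to 2689 and 4902 RPM in WT LZ and to 14.0 to 16.4 in SKO LZ, with 0 of 6 at 0 reads in either group. The 7 spermatid markers summed to 584 and 990 in WT LZ and to 7.07 to 9.12 in SKO LZ, where *Acrv1* was at 0. The 8 spermatogonia markers summed to 247 and 502 in WT LZ and to 525 to 550 in SKO LZ, with 3 of 8 called higher and 1 lower. Among somatic cells, 7 Leydig cell markers summed to 20.9 and 57.3 in WT LZ and to 79.1 to 229.7 in SKO LZ, and 7 Sertoli cell markers to 233 and 1165 and to 379.5 to 535.7. The 8 meiotic prophase markers summed to 5201 and 6094 in WT LZ and to 3513 to 5279 in SKO LZ, with 1 of 8 called lower. The part of these differences in the LZ results was not tested.

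Over all 17 libraries, which share stages and genotypes, the genes with at least 100 mean reads most like *Pcgf6* among 8665 were *Nol8* (Pearson's r = 0.950), *Hemt1* (0.943) and *Hspa2* (0.939), the last a heat shock protein of spermatocytes. In RPM, *Hspa2* was at 644 and 922 in WT LZ and at 94.5 to 111 in SKO LZ, while *Pcgf6* was at 101 and 126 and at 23.9 to 29.1. In PreL, where summed late spermatocyte markers were at 231 to 878 in WT and at 5.88 to 11.7 in SKO, *Pcgf6* was at 23.0 to 45.4 and at 19.4 to 23.8. *Ezh2* was most like *Smc3* (0.926), which encodes a cohesin subunit, *Lrig2* (0.899) and *Sec63* (0.896).

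**Figure D3:**
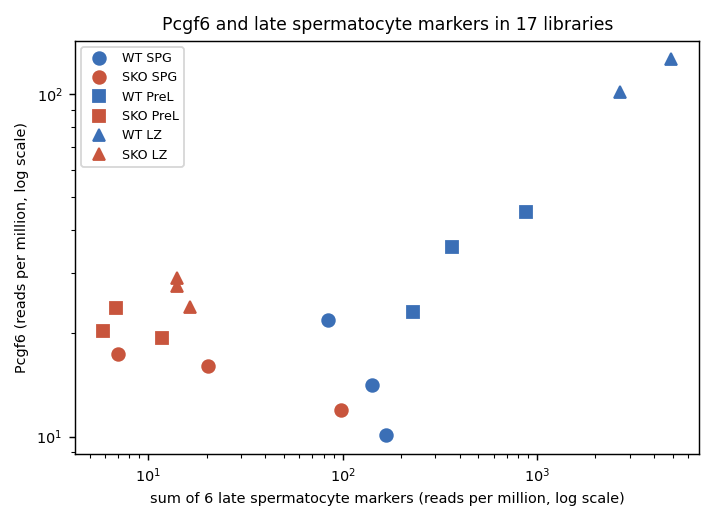
*Pcgf6* against the sum of 6 late spermatocyte markers, both in RPM on log axes, 1 point per library; blue, WT; red, *Nat10*-SKO; circles, SPG; squares, PreL; triangles, LZ. The 2 WT LZ libraries, at 101 and 126 for *Pcgf6*, lie apart from the other 15 at 10.1 to 45.4.

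Because complexes with alternative subunits depend on their proportions, 3 ratios of reads were formed within each library, with 1 read added to each side. No scaling enters such a ratio. For 3 libraries against 3 the smallest exact permutation p is 0.1, and for 2 against 3 it is 0.2, so none of these tests could pass 0.05. *Pcgf6* was set against the sum of *Pcgf1*, *Pcgf2*, *Pcgf3*, *Bmi1* and *Pcgf5*, which define the other PRC1 variants. In WT it stood at 0.0167, 0.0327 and 0.0241 of that sum in SPG, at 0.0630, 0.0941 and 0.0390 in PreL and at 0.224 and 0.311 in LZ. In SKO it stood at 0.0179 to 0.0262 in SPG, at 0.0329 to 0.0410 in PreL and at 0.0701, 0.0473 and 0.0606 in LZ. In LZ the ratio was 4.50-fold lower in SKO, with no overlap (log2 difference -2.17, two-sided exact permutation p = 0.2, adjusted over 9 ratio tests 0.36). Leaving out each LZ library in turn gave -2.41 to -1.93.

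The ratio of *Rnf2* to *Ring1*, the 2 alternative ubiquitin ligases, was above 8 in all 17 libraries. In PreL it was 37.9, 36.8 and 39.4 in SKO and 20.8, 8.43 and 19.4 in WT, with no overlap (2.53-fold, exact permutation p = 0.1, adjusted 0.36). In LZ it was 24.2, 57.3 and 36.7 in SKO and 14.0 and 21.3 in WT (2.15-fold, exact permutation p = 0.2, adjusted 0.36), on 17 to 23 reads of *Ring1* per SKO library. In SPG the genotypes overlapped. The ratio of *Ezh2* to *Ezh1*, its counterpart of resting cells, overlapped between genotypes in all 3 stages, with the widest gap in SPG at 12.2, 7.61 and 11.3 in SKO and 3.02, 7.74 and 3.52 in WT (exact permutation p = 0.2, adjusted 0.36).

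**Figure D4:**
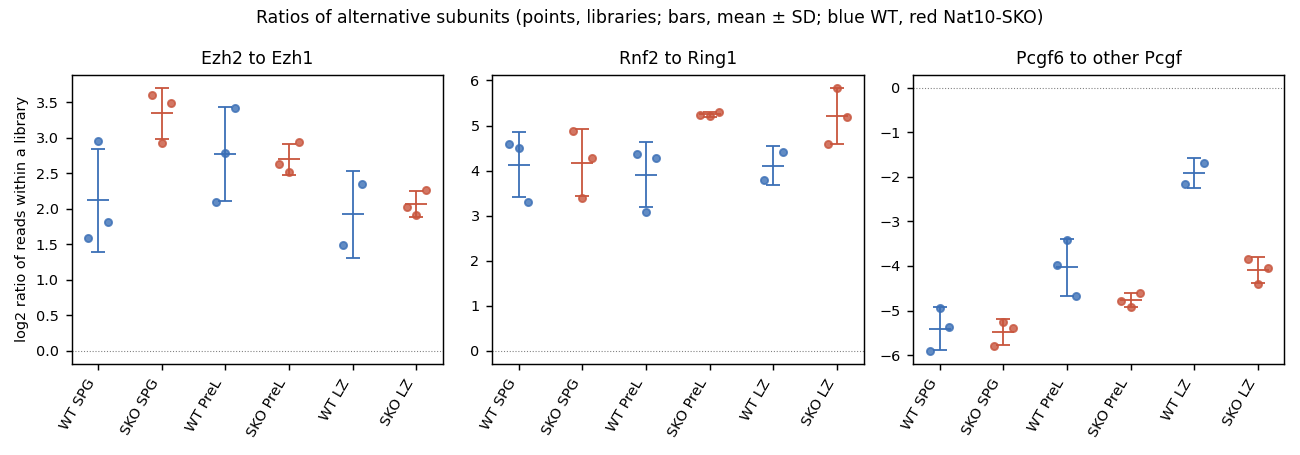
Log2 ratio of reads within a library (y axes) for *Ezh2* to *Ezh1*, *Rnf2* to *Ring1* and *Pcgf6* to the other *Pcgf* genes, by genotype and stage (x axes); points are libraries and bars the mean ± SD. *Pcgf6* to the other *Pcgf* genes lies at -2.16 and -1.69 in WT LZ and between -4.40 and -3.83 in SKO LZ.

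The partners in these ratios were described on their own as well. Of *Ezh1* and the 5 other *Pcgf* genes, limma, edgeR and DESeq2 called 0 in SPG and PreL, where 2 and 3 had an unadjusted p under 0.05. Of all genes, limma called 6.02% in SPG and 11.1% in PreL, and 26% and 33.7% had an unadjusted p under 0.05. *Bmi1*, which defines PRC1.4, had an adjusted p of 0.0253 in PreL (0.54 ± 0.14). In LZ, *Pcgf2* rose in SKO (1.23 ± 0.36, adjusted p = 0.0250), from 134 and 98 in WT to 370, 266 and 217. *Bmi1* (0.75 ± 0.15, adjusted p = 0.00435) and *Pcgf5* (0.47 ± 0.15, 0.0333) passed on the p alone. *Pcgf1* was at -0.80 ± 0.31 (0.0621), *Pcgf3* at 0.28 ± 0.26 (0.389) and *Ezh1* at -0.08 ± 0.19 (0.745). Of all genes, 39.1% were called in LZ and 50.9% had an adjusted p under 0.05.

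Other genes of the pathway came from lists written from general knowledge. In SPG and PreL, 0 of 8 other PRC1.6 subunits, 0 of the other PRC2 subunits, 0 of 19 other PRC1 genes and 0 of 9 removers of Polycomb marks were called by limma in SKO against WT. At an unadjusted p under 0.05 these lists held 1, 1, 4 and 3 genes in SPG and 2, 3, 6 and 4 in PreL, of 8, 10, 19 and 9 tested in SPG and 8, 9, 19 and 9 in PreL, beside the shares of all genes given above. Both edgeR and DESeq2 called 1 other PRC1 gene in SPG and otherwise 0. In LZ, of 8 other PRC1.6 subunits *Tfdp1*, the DNA-binding partner of E2F proteins, fell (-1.57 ± 0.30, adjusted p = 0.00386) and *Yaf2*, which links RING proteins to the complex, rose (1.11 ± 0.17, 0.00120). The median of the list was 0.07, against -0.13 over all genes tested. Of 9 other PRC2 subunits tested, *Phf1*, a recruiter of PRC2, fell (-2.33 ± 0.45, 0.00417), and *Ezhip*, an inhibitor of EZH2 that is known from the gonads, rose (1.43 ± 0.23, 0.00181), with a list median of 0.38.

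The 19 other PRC1 genes had a median of 0.48 in LZ. *Cbx7* (-2.13 ± 0.40, adjusted p = 0.00348) and *Scmh1* (-1.45 ± 0.27, 0.00324) fell in SKO, while *Auts2* (1.40 ± 0.21, 0.00114) and *Pcgf2* rose. CBX7 is a reader of methylated histone H3 in canonical PRC1. Of 9 removers of Polycomb marks, *Usp16*, a deubiquitinase of histone H2A (-1.60 ± 0.23, 0.00110), and *Kdm6b*, a demethylase (-1.21 ± 0.35, 0.0214), fell and *Asxl2*, a cofactor of the deubiquitinase BAP1, rose (2.15 ± 0.33, 0.00146), with a median of 0.30.

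MAX partners and their relatives, and the other E2F factors, were counted in the same way, beside 6.02%, 11.1% and 39.1% of all genes called in SPG, PreL and LZ. Of 9 MAX partners and relatives tested in LZ, *Mxd4* (-2.04 ± 0.39, adjusted p = 0.00361) and *Mxd1* (-1.73 ± 0.36, 0.00566), repressors of the MXD family, fell, and *Mycn* (2.09 ± 0.25, 0.000443) and *Mlxip* (1.04 ± 0.22, 0.00559) rose. In SPG 1 of 10 was called, higher, and in PreL limma, edgeR and DESeq2 called 0 of 9, with 1 at an unadjusted p under 0.05. Of 7 other E2F factors, 2 fell in SKO SPG, *E2f2* (-2.14 ± 0.42, 0.00620) and *E2f7* (-1.53 ± 0.38, 0.0210). In SKO PreL 3 fell, *E2f7* (-1.41 ± 0.25, 0.00640), *E2f1* (-1.20 ± 0.25, 0.0124) and *E2f2* (-1.03 ± 0.23, 0.0157). In LZ *E2f3* (1.13 ± 0.22, 0.00397) and *E2f5* (1.02 ± 0.16, 0.00160) rose. As for the members above, exons of *Phf1*, *Cbx7*, *Usp16*, *Kdm6b*, *Asxl2*, *Mxd4*, *Mlxip*, *E2f5* and *E2f7* overlap a gene on the opposite strand, as do those of *Sycp3*, *Tuba3a* and *Hoxa4* described next.

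Known targets of the 2 complexes were measured in the same libraries. Of 19 germline targets of PRC1.6, 2 fell and 0 rose in SKO SPG, 0 fell and 1 rose in SKO PreL, and 4 fell and 0 rose in SKO LZ, with a median of -0.31 in LZ. Of all genes, 2.06% fell and 3.95% rose in SPG, 5.83% and 5.32% in PreL and 25.8% and 13.4% in LZ. *Tuba3a* and *Tuba3b*, whose E2F letters are shown above, fell in SPG by 1.47 ± 0.16 (adjusted p = 0.000196) and 1.11 ± 0.15 (0.000670). The marker differences between the SPG groups given above stand beside these falls. In LZ they fell by 2.34 ± 0.22 (0.000143) and 2.51 ± 0.25 (0.000183). The 2 genes share near-identical sequence, so how reads were divided between them is uncertain. *Sycp3*, of the synaptonemal complex, rose in PreL (1.13 ± 0.20, 0.00536). This gene is also among the meiotic prophase markers, whose sum was higher in SKO PreL. *Tdrd1*, of the piRNA pathway, fell in LZ (-1.32 ± 0.19, 0.00105), as did *Mael* (-1.24 ± 0.25, 0.00496), which was the other call and was named after its values were seen. Neither the *Tdrd1* nor the *Mael* windows held the E2F letters. *Ddx4*, *Hormad1* and *Smc1b*, whose E2F letters are shown, were not called in LZ, at -0.14 ± 0.20, -0.31 ± 0.20 and -0.64 ± 0.26. Sites and calls were not compared over the whole list, and no relation between them was tested.

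Of 39 *Hox* genes, 2 passed the filter in SPG, 3 in PreL and 5 in LZ, so most were near 0 reads in every group. Genes that pass a filter through 1 high group tend to differ, and no count over these 5 is read as a result. *Hoxa4*, at 4 to 34 reads in every SPG and PreL library, held 481 and 773 reads in WT LZ and 13, 8 and 17 in SKO LZ. *Hoxd8* held 89 and 133 reads in WT LZ and 3, 14 and 14 in SKO LZ. *Hoxb4*, named after its values were seen, held 20, 21 and 13 reads in SKO LZ and 1 and 2 in WT LZ.

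**Figure D5:**
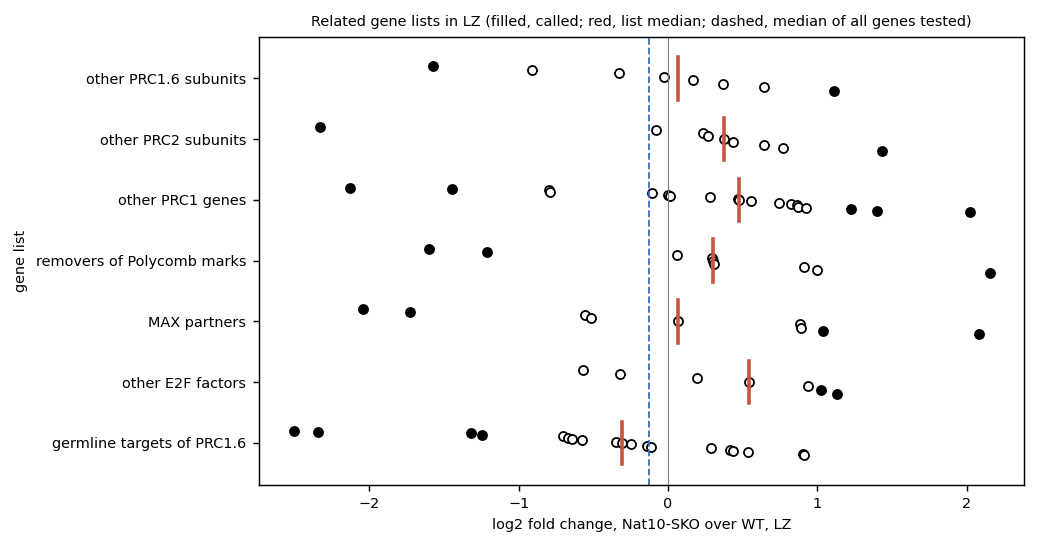
Log2 fold change of *Nat10*-SKO over WT in LZ (x axis) for genes of 7 related lists (y axis). Each point is a gene, filled where called; red bars are list medians and the dashed line is the median of all genes tested, -0.13; 4 germline targets are filled, all below -1.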

How the data were processed

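Poly(A) RNA of FACS-sorted SPG, PreL and LZ cells was sequenced by the authors after Smart-seq2 amplification with ERCC spike-in RNA. The authors mapped trimmed reads to mm10, counted reads per gene and multiplied each library by a calibration factor. This factor lay between 1 and 1.37 in WT SPG and between 7.43 and 10.4 in SKO LZ, and its precision was not tested. The submitters' processing notes also name mm9, TopHat2 2.1.1, Cufflinks 2.2.1, HTSeq 0.11.2 and DESeq2. The deposited values are therefore a signal, whole reads times 1 factor per library, and 100% of values came out whole within 0.01. Reads were recovered by dividing by that factor. They were amplified by PCR without molecular identifiers, so depth bounds counting error only.

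Size factors (median of ratios, from the libraries of each comparison) were applied to the deposited values. For genes averaging 10 reads or more, log2(value + 10), which understates changes of low genes, was fitted with limma 3.58.1 in R 4.3.3 (mean-variance trend). Values printed per library were scaled over all 17 libraries. Interactions were called at the adjusted p alone. Ratios were tested with two-sided exact permutation tests (scipy 1.17.1). RPKM used exon lengths of GENCODE vM21 (GRCm38). Promoter sequences are from RefSeq (GRCm38.p6). Alternatives were the unscaled ERCC values, TMM, a pseudocount of 1 or of 50, a filter at 50 reads or none, edgeR 4.0.16, DESeq2 1.42.0, a replicate block, 1 fit of all 17 libraries, no fold threshold and each library left out; RPM scaling (to equal library totals) was added after the data were seen. edgeR and DESeq2 ran on the recovered reads.

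The members and lists were chosen with earlier results of these data known. Named were all members, their ratio partners, *Nat10*, of each list up to 3 called genes per direction and stage with the largest change and a mean of at least 50 reads, and the 3 genes most like *Pcgf6* and *Ezh2*. *Meiosin* was not analysed here, and 1 called gene of the lists is not reported. No pair of libraries agreed within sampling noise. The fits were tested on simulated data.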

Additional observations from a re-analysis of the deposited data

Results flagged for a closer look

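The change from PreL to LZ differed between WT and *Nat10*-SKO by the interaction term of limma over all 17 libraries for 5 members and 3 ratio partners (adjusted p under 0.05). Values are the SKO change minus the WT change on the log2 scale. Among PRC1.6 and PRC2 members it was 1.12 for *Mga* (SE 0.22, adjusted p = 0.000553), 0.96 for *Suz12* (SE 0.22, 0.00223), 0.60 for *Eed* (SE 0.17, 0.00987), 1.09 for *Max* (SE 0.34, 0.0175) and 1.29 for *E2f6* (SE 0.43, 0.0230). Among the partners it was 0.85 for *Pcgf5* (SE 0.18, 0.00108), -1.10 for *Pcgf1* (SE 0.34, 0.0144) and 1.08 for *Pcgf2* (SE 0.42, 0.0470). Of all genes, 38.2% differed. No group held 4 libraries, so none was searched for outlying libraries.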

How the results depend on the processing

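Of 1589 log2 fold changes of members under an alternative, 1437 stayed on their side of an adjusted p of 0.05, 77 lost it, 52 gained it and 23 changed sign with an adjusted p under 0.05 on either side, all 23 on the ERCC scale without rescaling; sign changes of values that passed on neither side are not counted among them. On that scale 1 member was called in SPG, 1 in PreL, 2 in LZ, 0 from SPG to PreL and 6 from PreL to LZ in WT, 7 and 5 in SKO, and 6 (all higher) and 3 (all lower) for the interactions of the first and the second step. These log2 fold changes for SKO against WT in PreL were 0.61 (*Ezh2*), 0.31 (*Eed*) and 0.64 (*Suz12*). From PreL to LZ in WT they were 1.11 (*Mga*), 1.18 (*Max*), 0.83 (*E2f6*), 1.52 (*Rnf2*), 1.26 (*Ring1*), 0.90 (*Ezh2*), 0.82 (*Eed*) and 0.60 (*Suz12*). In SKO they were 0.91 (*Max*), 0.94 (*Ezh2*) and 1.01 (*Eed*) from SPG to PreL, and 0.74 (*Rnf2*), 0.23 (*Ezh2*), 0.55 (*Eed*) and 0.69 (*Suz12*) from PreL to LZ. The interactions were 0.74 (*Mga*), 0.94 (*Eed*) and 0.88 (*Suz12*) for the first step and -0.78 (*Rnf2*) and -0.27 (*Eed*) for the second. The median of all genes moved with this scale, to 0.73 in PreL, to 1.86 from PreL to LZ in WT and to 1.01 and 0.81 over the 2 steps in SKO.

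RPM scaling called 1 member from PreL to LZ in SKO and 3 for the second interaction. Without a fold threshold 1 member was called in PreL, 6 in LZ, 6 from PreL to LZ in WT and 4 in SKO. From SPG to PreL in WT, 1 was called at a mean of at least 50 reads, with DESeq2 and in 1 fit of all 17 libraries. With 1 library left out, the count ranged from 0 to 1 in SPG and from SPG to PreL in WT, from 2 to 3 in LZ and from 4 to 6 for the second interaction. Log2 differences of ratios then ranged from -0.41 to 0.25 (*Ezh2* to *Ezh1*, PreL), from -0.29 to 0.58 (the same, LZ), from -0.37 to 0.44 (*Rnf2* to *Ring1*, SPG) and from -0.33 to 0.16 (*Pcgf6* to the other *Pcgf* genes, SPG).

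Same-numbered libraries of 2 groups deviated with correlations of -0.19 to 0.13, and no source ties a number to an animal or day. With the replicate number as a block, 1 member was called in SPG (*E2f6*, adjusted p = 0.0315), 1 in PreL (*Pcgf6*, -1.08) and 1 from SPG to PreL in WT (*Pcgf6*, 1.38), and counts of all genes fell from 333 to 116 from SPG to PreL in SKO and from 49 to 12 for the first interaction. The block could not be fitted from PreL to LZ in WT.

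Other counts of all genes that moved by over 1.5 times were, on the ERCC scale, 1464 to 4044 in PreL, 3658 to 11007 from PreL to LZ in WT, 333 to 5687 and 2184 to 4561 over the 2 steps in SKO, and 49 to 6085 for the first interaction. In SPG 773 became 503 with no filter, 507 at a mean of 50 reads and 1206 in 1 fit of all libraries, and in PreL 1464 became 766 at 50 reads. From SPG to PreL, 475 in WT and 333 in SKO became 144 and 219 with no filter, 731 and 650 with DESeq2 and 721 and 541 in 1 fit of all libraries. The first interaction had 16 with edgeR, 334 with DESeq2, 17 and 107 with a pseudocount of 1 and 50, and 28 at 50 reads. Leaving out 1 library moved such counts too, among them to 423 in SPG (without WT SPG replicate 3), 690 in PreL (without SKO PreL replicate 1), 105 from SPG to PreL in WT (without WT SPG replicate 3), 108 in SKO (without SKO PreL replicate 1), 1716 from PreL to LZ in WT (without WT LZ replicate 3) and 6 for the first interaction (without SKO PreL replicate 2). On the recovered reads, edgeR called 631 genes in SPG, 1369 in PreL and 5262 in LZ. *Ring1* is limited by depth, at 17 to 23 reads in the SKO LZ libraries. The causes of these changes were not tested.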
